A study of Equus caballus with 14 samples.

Results

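The endometrium of pregnant mares was compared with that of cyclic mares on day 13 after ovulation. These were the 9 biopsies among the 14 samples of the series, 4 from cyclic and 5 from pregnant endometrium, and all other samples were embryos. Members were taken from the labels for tissue and stage. Of 26740 Ensembl gene identifiers with raw counts, 11892 had more than 4 counts per 1000000 counts of the library (CPM) in at least 4 of the 9 biopsies and were tested.

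Both groups came from reproductively sound Warmblood mares in a switch-back design, in which each mare went through a pregnant and a cyclic cycle in varied order. Every mare received hCG when she showed uterine oedema and a large follicle. Mares were inseminated with fresh semen of 1 stallion in the pregnant cycle and were left unbred in the cyclic cycle. In both cycles a tampon was placed in the uterus before the biopsy was cut, so each biopsy came from a handled uterus. In the pregnant cycle the uterus was also flushed before the biopsy, to recover the embryo. The study does not state whether cyclic uteri were flushed, so an effect of flushing cannot be told apart from pregnancy. Each biopsy was whole tissue. RNA of the cyclic biopsy of mare 5 was of low quality and was not sequenced, so pregnant 5 had no partner. It was used for the filter, the scaling and the dispersion but not for the fold change.

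In the mare, the conceptus travels through the uterine lumen and must keep the endometrium from releasing the prostaglandin pulses that end the life of the corpus luteum, a step called maternal recognition of pregnancy. The horse has no interferon tau of the kind that serves as this signal in ruminants, and the equine signal is not known. While the conceptus is free in the lumen it lives on uterine secretions: proteins, lipids, sugars, amino acids and ions that glandular and luminal epithelium release or transport. Growth factors that pass between stroma and epithelium, and the matrix under the epithelium, are remodelled in early pregnancy.

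Libraries held 21.8 to 46.9 M counts (M stands for 1000000), with cyclic 2 the shallowest. Markers of the expected tissue were present in every biopsy: 48 genes of multiciliated cells, 18 of epithelium, 14 of stroma, 4 of smooth muscle, 7 of endothelium and 20 of leukocytes each had at least 10 counts in all 9 libraries. The ciliated markers summed to 1860 CPM in cyclic 3, against 4380 to 6640 in the other cyclic biopsies and 3470 to 5940 in pregnancy. Stromal markers summed to 892 CPM in cyclic 1, against 1450 to 1990 in the other cyclic biopsies and 859 to 1430 in pregnancy. In whole tissue, fewer cells of a type and less RNA per cell cannot be told apart. The 50 genes most specific to embryos 2 to 5 summed to 21.4 to 48 CPM in cyclic and 27.6 to 110 CPM in pregnant endometrium. One gene of these 50, ENSECAG00000006012, singled out after its values were seen, was itself called higher in pregnancy (log2 change 5.36, adjusted p = 0.000124). It stood at 64.2, 30.5, 40.8, 0.928 and 5.02 CPM in pregnant 1 to 5, at 0.0973 to 1.38 CPM in cyclic endometrium and at 878 to 1370 CPM in embryos 2 to 5. This gene passed the level filter through the pregnant biopsies alone. The other 49 summed to 26.6 to 69 CPM in pregnancy and 21.3 to 46.7 CPM in cyclic endometrium. Transfer of embryonic RNA to the biopsies was not tested.

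Pregnant endometrium carried more transcript of the amino acid transporter SLC36A2, the calcium buffer PVALB, the prostaglandin reductase PTGR1, the lipid-binding protein GM2A and the growth factor FGF9. It carried less of the growth factor FGF7, of fibronectin (FN1) and of the metalloproteinase ADAMTS17. With the mare as a block, 213 genes (1.79% of those tested) passed the likelihood ratio test of edgeR with a change past 2-fold and an adjusted p under 0.05, and are termed called. Of these, 136 (1.14%) rose and 77 (0.647%) fell in pregnancy. Under quasi-likelihood in edgeR, a stricter test that was given the same mare block, and under limma with voom, 1 gene was called (0.00841%), PVALB. Without the block, the likelihood ratio test called 179 genes (1.51%). All other calls below therefore rest on the likelihood ratio test, although 1354 genes had an unadjusted quasi-likelihood p under 0.05. By the likelihood ratio test, 1341 of the 11892 genes had an unadjusted p under 0.05, the count to set beside those of the lists below. DESeq2 with the mare block called 237 of the 11892 genes.

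Symbols could be attached to 109 of the 136 rises and 64 of the 77 falls, from pairs of identifier and symbol that the study lists. Most genes outside those lists stayed without a name: 1783 of the 11892 tested had a symbol. Of these, 1641 appear among genes that differ between embryo and pregnant endometrium, and are termed named through the embryo comparison. That comparison did not use the cyclic samples, but it used the same pregnant biopsies. Some of these genes, such as SLC36A2, PTGR1 and GM2A, are also in the study's list of pregnant against cyclic endometrium. Their symbols may come from either list, and they were counted with the embryo comparison. Other genes were named only in the study's list of pregnant against cyclic endometrium. Those were chosen for a change between the groups in these same biopsies and are counted apart. Many calls among them are therefore built in, and their counts below are no result about a gene family. Neither set gives independent evidence of direction. The gene lists used below were chosen with earlier results of these data known, so the share called in a list is a description only.

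Some of the largest rises were in transporters, channels and calcium-binding proteins. This grouping was made after the values were seen. SLC36A2 (ENSECAG00000011961), a proton-coupled transporter of small amino acids such as glycine and proline, stood at 5.95, 3.02, 1.61 and 17.8 CPM in cyclic 1 to 4. In pregnant 1 to 5 it stood at 294, 815, 543, 441 and 727 CPM. The groups were far apart, with the lowest pregnant biopsy well above the highest cyclic one, and the fitted log2 change was 6.69 ± 0.62 (SE; adjusted p = 6.1e-13). PVALB (ENSECAG00000021062), the calcium buffer parvalbumin, had 2, 1, 3 and 0 counts in cyclic 1 to 4 and 573, 1792, 2333, 262 and 1067 counts in pregnant 1 to 5. Every pregnant biopsy expressed it, and the cyclic libraries were at or under 3 counts (adjusted p = 5.99e-82 by the likelihood ratio test and 0.00456 by the quasi-likelihood test of edgeR). PVALB passed the level filter through the pregnant biopsies alone, and it had 0 counts in all 5 embryos.

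KCNN2 (ENSECAG00000020082), a potassium channel opened by intracellular calcium, had 2.71, 7.12, 10.2 and 19.4 CPM in cyclic and 62.8, 410, 218, 105 and 206 CPM in pregnant endometrium. The groups did not overlap (log2 change 4.33 ± 0.49 SE, adjusted p = 1.81e-10). TRPV3, a calcium-permeable channel, rose from 2.83 ± 1.37 (SD, n = 4) to 35.1 ± 13.8 CPM (SD, n = 5; adjusted p = 7.67e-09). S100G, the calcium shuttle calbindin-D9k, rose from 12.3 ± 10.3 (SD, n = 4) to 75.1 ± 34 CPM (SD, n = 5; adjusted p = 0.000101). Neither gene overlapped between the groups. SLC15A1, a peptide transporter, rose by a log2 change of 3.22 ± 0.61 (SE; adjusted p = 0.000845), although the rise was 0.84 in mare 4 against 3.23 to 5.35 in the other mares.

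Among 41 solute and lipid transporters named through the embryo comparison, 3 rose and 1 fell (9.76%, against 3.41% of the 1641 genes named in that way). The median log2 change was 0.16, against 0.05 for the 1641 genes and 0.00 for all genes tested. Besides SLC36A2, the rises were ABCA5, a lipid transporter of intracellular membranes (log2 change 1.44), and SLC26A4, the anion exchanger pendrin (1.85). The fall was SLC7A2, a carrier of arginine and lysine (-1.80 ± 0.22 SE, adjusted p = 1.77e-12), which fell by 1.43 to 2.33 on the log2 scale in the 4 mares. A further 11 transporters were named only in the study's own list, and of them 7 rose (ABCC6, ABCC1, ABCA3, SLC15A1, SLC4A11, SLC46A2 and ABCG2) and 2 fell (SLC9A9 and SLC2A9, a urate carrier). These 11 were listed for a change in these biopsies, so that count is no result about transporters. The calls of SLC36A2, SLC7A2, SLC15A1, ABCC1 and ABCC6 remained when any mare was left out. That of SLC26A4 was lost without mare 2, 3 or 4 (highest adjusted p = 0.203), that of ABCA5 without mare 3 (0.0679) and that of ABCG2 without mare 2, 3 or 4 (0.418). SLC46A2 (highest adjusted p = 0.175), SLC4A11 (0.112) and SLC9A9 (0.236) also lost theirs without 1 mare or another, and ABCA3 (0.87 to 1.18 over the fits) and SLC2A9 (-1.20 to -0.99) came under the fold limit on the log2 scale.

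Some enzymes and secretory genes also rose. PTGR1 (ENSECAG00000004698), a reductase that inactivates prostaglandins and leukotriene B4, was measured at 224, 163, 52.9 and 182 CPM in cyclic and at 664, 857, 427, 491 and 462 CPM in pregnant endometrium. Every pregnant biopsy exceeded every cyclic one (log2 change 2.10 ± 0.31 SE, adjusted p = 1.28e-07). GM2A (ENSECAG00000020587), a lipid-binding cofactor for the breakdown of gangliosides, was measured at 504, 142, 212 and 1000 CPM in cyclic and 1150, 2730, 1730, 1710 and 1730 CPM in pregnant endometrium. The groups did not overlap, but cyclic 4 came close to pregnant 1, and the change (2.29 ± 0.56 SE, adjusted p = 0.019) lost its call without mare 2 or mare 3 (highest adjusted p = 0.28). DDC (ENSECAG00000009450), which makes dopamine and serotonin from their amino acid precursors, was measured at 0.0256, 0.717, 0 and 0 CPM in cyclic and 5.22, 18.3, 6.2, 4.06 and 5.08 CPM in pregnant endometrium (adjusted p = 3.5e-10). Cyclic 2, with 14 counts, was the single cyclic library above 1 count, and DDC passed the level filter through the pregnant biopsies alone.

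Of 17 genes of uterine secretions named through the embryo comparison, 4 rose and 0 fell (23.5%, against 3.41% of the 1641 genes named in that way). In all, 7 had an unadjusted likelihood ratio p under 0.05, beside 1341 of all 11892 genes tested. The 4 rises were GM2A, LIPA, the lysosomal acid lipase (log2 change 1.17), LIPG, a phospholipase of the lipase family (1.93), and VNN1, a pantetheinase (1.73). All 4 are also in the study's list of pregnant against cyclic endometrium. The list was chosen with earlier results of these data known, and 22 of its 23 symbols were tested. Its 23.5% is therefore not independent of these data. VNN1 rose from 1112 ± 328 (SD, n = 4) to 3549 ± 1096 CPM (SD, n = 5). LIPA lost its call without mare 2 or mare 3 (highest adjusted p = 0.0595), and LIPG and VNN1 kept theirs in every such fit. From the study's own list, the mucin MUC20, the lysosomal mannosidase MANBA and the aspartic protease CTSE rose, and the retinol carrier RBP4 and the ectonucleotidase ENPP3 fell. CTSE moved unevenly, by 0.87 on the log2 scale in mare 1 and 3.14 to 6.29 in the others, and lost its call without mare 3 (adjusted p = 0.101). MANBA lost its call without mare 2 or 3 (highest adjusted p = 0.101), and RBP4 without mare 1 or 4 (log2 changes of -1.16 to -0.89, highest adjusted p = 0.0676).

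Several secretory transcripts of the equine uterus did not pass the test. P19, the lipocalin uterocalin, stood at 26110 ± 15180 CPM in the 4 cyclic biopsies and at 19940 ± 7018 CPM in the 5 pregnant ones (SD) (adjusted p = 0.903). SCGB1A1, uteroglobin, stood at 856 ± 183 and 882 ± 436 CPM (adjusted p = 0.983). SERPINA14, uterine serpin, had an adjusted p of 0.884, and STC1, the glycoprotein stanniocalcin, one of 0.397, with within-mare differences of STC1 from -0.02 to 2.61. ACP5, or uteroferrin, an iron-binding acid phosphatase, was lower by 1.01 on average (log2, adjusted p = 0.165), with differences of -1.72 and -1.86 in mares 2 and 3 and of -0.39 and -0.06 in mares 1 and 4.

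Of 5 prostaglandin genes named through the embryo comparison, PTGR1 was the 1 called (20%, against 3.41% of the 1641 genes named in that way). PLA2G6, a phospholipase, passed the adjusted p but not the fold limit (log2 change -0.64, adjusted p = 0.0273, lower in all 4 mares). PTGER4, a receptor for prostaglandin E2, had a log2 change of 1.12 ± 0.41 (SE; adjusted p = 0.168), and PTGFR, the receptor for prostaglandin F2alpha, one of -0.52 (adjusted p = 0.696). ANXA1, a phospholipase-inhibiting annexin, was at 646 ± 195 and 801 ± 185 CPM (adjusted p = 0.505). No identifier was paired with PTGS2, OXTR, ESR1 or PGR, so these genes were not analysed here. Among 8 steroid and oxytocin genes with a name, NR2F2 was the 1 called (12.5%, against 3.41% of the 1641 genes), with a log2 change of 1.30. ERRFI1, an inhibitor of EGF receptor signalling, had a log2 change of 1.32 (adjusted p = 0.112), was higher in 3 of 4 mares and was called by DESeq2. HSD11B1, HSD11B2, GREB1, NRIP1 and FOXO1 had adjusted p-values of 0.91 to 0.974.

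Growth factors and their binding proteins moved in both directions. FGF9 (ENSECAG00000018716), a fibroblast growth factor, stood at 71, 30.3, 76.6 and 43.8 CPM in cyclic and 430, 468, 579, 138 and 344 CPM in pregnant endometrium. The groups did not overlap, and pregnant 4 was the lowest of its group (log2 change 2.78 ± 0.37 SE, adjusted p = 2.85e-09). FGF7 (ENSECAG00000015510), the keratinocyte growth factor, which stroma makes and epithelium receives, moved the opposite way, from 29.7, 15.6, 22.8 and 34 CPM in cyclic to 1.39, 1.27, 1.35, 0.371 and 0.903 CPM in pregnant endometrium. Each pregnant biopsy was far below each cyclic one (log2 change -4.57 ± 0.46 SE, adjusted p = 2.85e-14). FGF7 passed the level filter through the cyclic samples alone, so it was tested in only 1 of the 5 fits that left out a mare, in which its call remained. It had 0 counts in all 5 embryos.

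MET, the receptor of hepatocyte growth factor, rose from 129 ± 6.5 (SD, n = 4) to 315 ± 71.7 CPM (SD, n = 5; adjusted p = 8.49e-07), whereas HGF, its ligand, fell by 1.42 on the log2 scale. The MET call remained without any single mare, and the HGF call was lost without mare 2, 3 or 4 (highest adjusted p = 0.151). MET, HGF and FGF7 were named in the study's own list, where 3 genes of the family were called. Of 7 named through the embryo comparison, FGF9 was the 1 called (14.3%, against 3.41% of the 1641 genes named in that way).

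In the insulin-like growth factor (IGF) axis, the binding proteins split. IGFBP4 (ENSECAG00000011271) stood at 46.9, 138, 134 and 46.3 CPM in cyclic and 35.2, 10.6, 19.1, 16.3 and 29.7 CPM in pregnant endometrium. The groups did not overlap but came close, and the log2 difference was -0.42 in mare 1 and -3.69 in mare 2 (fitted -2.11 ± 0.51 SE, adjusted p = 0.0124), with the call lost without mare 2 or 3 (highest adjusted p = 0.242). IGFBP1 rose from 14.5 ± 14.6 (SD, n = 4) to 71.1 ± 32.1 CPM (SD, n = 5; adjusted p = 0.0236), a call lost without mare 3 or 4 (highest adjusted p = 0.259). IGFBP3 rose by a log2 change of 1.31, a call lost without mare 1, 3 or 4 (highest adjusted p = 0.158). All 3 binding proteins came from the study's own list. Of 8 genes named through the embryo comparison, 2 were called (25%, against 3.41% of the 1641 genes named in that way). INSR, the insulin receptor, fell by 1.00 on the log2 scale, and PDE3B, a phosphodiesterase that insulin activates, by 1.19. The INSR call was lost without mare 1 or 2 (highest adjusted p = 0.261), and that of PDE3B without any of mares 2 to 5 (0.469). IGF1 itself had a log2 change of -0.94 ± 0.50 (SE; adjusted p = 0.567), with a rise of 0.96 in mare 1 and differences of -0.81 to -2.31 in mares 2 to 4.

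Among receptors and signalling genes, GPR153 (ENSECAG00000024683), an orphan G protein-coupled receptor, rose evenly. It stood at 1.43, 2.92, 3.77 and 2.18 CPM in cyclic and 12.9, 24.2, 21.6, 12.9 and 27.2 CPM in pregnant endometrium, with no overlap. Its change of 2.50 to 3.13 in the 4 mares (log2 change 2.82 ± 0.25 SE, adjusted p = 5.16e-23) had an adjusted quasi-likelihood p of 0.0506. GPR153 passed the level filter through the pregnant biopsies alone. LTBP1, which holds latent TGF-beta in the matrix, rose by 1.82 to 2.63 in the 4 mares (adjusted p = 4.56e-18). Of 13 TGF-beta and BMP genes named through the embryo comparison 0 were called by edgeR or by DESeq2, and 3 had an unadjusted likelihood ratio p under 0.05. TGFB1 passed the adjusted p but not the fold limit (log2 change -0.72, adjusted p = 0.0393, lower in all 4 mares). From the study's own list LTBP1 rose and CHRD, an antagonist of BMP, PMEPA1, a feedback inhibitor of TGF-beta signalling, and TGFBR1, its receptor, fell. CHRD lost its call without mare 2, 3 or 4 (highest adjusted p = 0.131) and TGFBR1 without mare 2 or 3 (0.214).

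Of the Wnt and hedgehog genes, WNT7B, a ligand of epithelium, rose and WNT11 and GLI2, a transcription factor of hedgehog signalling, fell, all named in the study's own list. WNT7B rose by 9.43 on the log2 scale in mare 2 and by 1.97 to 3.58 in the others (adjusted p = 0.0486), and the call was lost without mare 1, 3, 4 or 5 (highest adjusted p = 0.162). Cyclic 2 had 0 counts of WNT7B, so the size of the difference in mare 2 depends on the prior count. GLI2 was lost without mare 1, 2 or 4 (highest adjusted p = 0.316) and WNT11 without mare 2 or 4 (0.105). Of 11 genes named through the embryo comparison, NR2F2 was the 1 called (9.09%, against 3.41% of the 1641 genes named in that way). It was also the 1 call of the steroid and oxytocin list, so both counts rest on the same gene. NR2F2, a nuclear receptor of uterine stroma, rose from 50.98 ± 10.9 (SD, n = 4) to 139 ± 37.5 CPM (SD, n = 5). It kept its call without any single mare. IHH, the hedgehog ligand of the uterine epithelium, had a log2 change of -0.95 (adjusted p = 0.399).

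**Figure D1:**
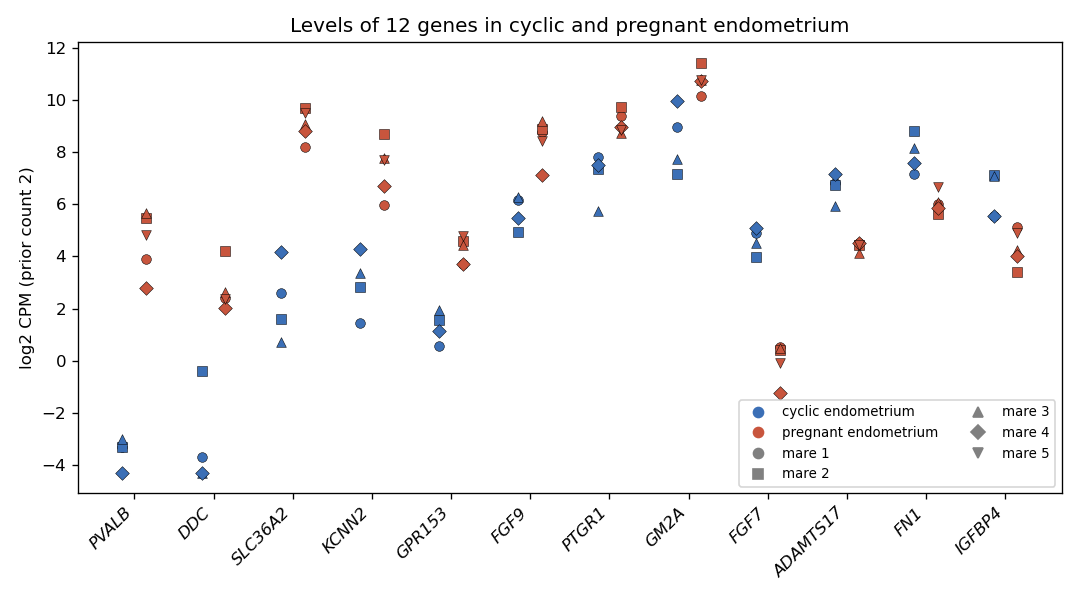
Log2 CPM (vertical axis, prior count 2) of 12 genes in each of the 4 cyclic (blue) and 5 pregnant (red) biopsies, with a marker shape per mare. The 8 genes on the left are higher in every pregnant than in every cyclic biopsy, as SLC36A2 with a lowest pregnant value of 294 CPM against a highest cyclic value of 17.8 CPM, and the 4 on the right are lower in every pregnant biopsy.

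Some matrix proteins and proteases were among the falls. FN1 (ENSECAG00000000701), fibronectin, stood at 141.3, 447.9, 281.7 and 189.1 CPM in cyclic and 63.9, 49.6, 68.4, 58.1 and 102.1 CPM in pregnant endometrium. The pregnant values were all lower and lay closer together (log2 change -2.01 ± 0.34 SE, adjusted p = 6.64e-06), and each mare had a negative difference, from -1.15 in mare 1 to -3.17 in mare 2. ADAMTS17 (ENSECAG00000000579), a secreted metalloproteinase of the matrix, stood at 113, 108, 61.1 and 141 CPM in cyclic and 22.8, 21.7, 17.6, 22.9 and 21.8 CPM in pregnant endometrium. The 5 pregnant biopsies were nearly alike, with an SD of 2.19 CPM against 33.1 CPM in cyclic endometrium, and the log2 change of -2.26 ± 0.21 (SE; adjusted p = 4.72e-22) ranged from -1.80 to -2.62 in the 4 mares.

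FRAS1, a protein that anchors epithelium to its basement membrane, fell from 250 ± 105 (SD, n = 4) to 74.9 ± 37.2 CPM (SD, n = 5; adjusted p = 0.00126). Of 26 matrix genes named through the embryo comparison, LAMB3, a chain of epithelial laminin, rose, PAPLN, papilin, and COL5A3, a fibrillar collagen chain, fell (11.5% called, against 3.41% of the 1641 genes named in that way and 1.79% of all), and the median log2 change was -0.51. PAPLN fell from 766 ± 387 (SD, n = 4) to 340 ± 108 CPM (SD, n = 5). FN1, FRAS1 and PAPLN kept their calls without any single mare, and LAMB3 and COL5A3 lost theirs without mare 2, 3 or 4 (highest adjusted p = 0.147 and 0.464). COL4A6, a basement membrane collagen from the study's own list, rose, and lost its call without mare 2 or 4 (highest adjusted p = 0.329).

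Stromal markers were not called: of 14, 0 passed with edgeR or DESeq2 and 2 had an unadjusted likelihood ratio p under 0.05. The stromal median was 0.58 in mare 1 and -1.06, -0.61 and -0.89 in mares 2, 3 and 4, and the matrix median was 0.33 in mare 1 and -1.03, -0.55 and -0.59 in the others. The lists share 9 genes, so these medians are not independent, and the 17 matrix genes outside the stromal list had medians of -0.12, -0.75, -0.47 and -0.27 in mares 1 to 4. Without mare 1, 8 of the 26 matrix genes and 6 of the 14 stromal markers were called lower. In that fit, 50 of 1639 genes named through the embryo comparison and 2.01% of all genes were called lower. LAMB3 and COL22A1 of the matrix list were called higher, beside 72 of those 1639 genes and 1.87% of all. COL1A2, COL6A1 and COL6A2, called lower there, are members of both lists. In mare 1 the differences of FN1, FRAS1, PAPLN and ADAMTS17 were -1.15, -2.18, -1.56 and -2.31. The part of stromal content in the falls was not tested.

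Of 25 proteases and inhibitors named through the embryo comparison, AOPEP, an aminopeptidase, was the 1 called, upwards (4%, against 3.41% of the 1641 genes), and its call was lost without mare 2, 3 or 4 (highest adjusted p = 0.0973). ECE1, the endothelin-converting enzyme, passed the adjusted p but not the fold limit (log2 change -0.83, adjusted p = 0.000603) and was lower in every pregnant biopsy. From the study's own list PLAT, the tissue plasminogen activator, rose by 1.93 to 2.98 in the 4 mares (6.49 ± 2.7 CPM, SD, n = 4, against 30 ± 15 CPM, SD, n = 5). TMPRSS4, a membrane serine protease, and BACE2, an aspartic protease, rose too. ADAMTS17, ADAMTS5, a protease of proteoglycans, CTSZ, cathepsin Z, and SERPINA3, a serine protease inhibitor, fell. PLAT, TMPRSS4 and CTSZ kept their calls without any single mare, BACE2 lost its call without mare 2 or 4 (highest adjusted p = 0.11), and ADAMTS5 and SERPINA3 lost theirs without mare 2, 3 or 4 (0.264 and 0.177). Besides these, the larger falls were of NPAS1, a transcription factor (log2 change -1.92 ± 0.21 SE), DACH2, KRT4, a keratin of squamous epithelium, NRGN, neurogranin, and PKDCC, a secreted kinase. KRT4 and NRGN lost their calls without mare 2 or 3 (highest adjusted p = 0.342 and 0.499) and PKDCC without mare 2 (0.232). DACH2 passed the level filter through the cyclic biopsies alone and was tested in only 1 fit that left out a mare, where its call remained.

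Interferon-stimulated genes, which interferons switch on in most cells, were mostly higher in pregnancy by small amounts. Of 28 named through the embryo comparison, 24 had a positive log2 change and PHF11, JAK1, IRF1 and IFNAR1 a negative one, with a median of 0.46 against 0.05 for the 1641 genes named in that way. They were higher in 19, 25, 25 and 23 of 28 in mares 1 to 4, and 17 (60.7%) were higher in all 4 mares, against 12.1% of the 1641 genes and 11.3% of all tested. IFI6, a mitochondrial antiviral protein, and TAP1, the peptide transporter of antigen presentation, were called (7.14% of the list against 3.41% of the 1641 genes). In all, 17 of the 28 had an unadjusted likelihood ratio p under 0.05, beside 1341 of all 11892 genes. The quasi-likelihood test called 0 of the 28, with 17 at an unadjusted p under 0.05, beside 1354 of all genes. IFI6 lost its call without mare 4 (adjusted p = 0.0505) and TAP1 without mare 2 or 3 (highest 0.107).

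Other members of the list were near 1 on the log2 scale or below. IFI27 (0.94, adjusted p = 0.0027) and IFIT5 (0.99, adjusted p = 0.00295) passed the adjusted p but not the fold limit, and IRF9 (0.46), a transcription factor of the interferon response, had an adjusted p of 0.304. The receptor chain IFNAR1 was lower in all 4 mares (-0.45, adjusted p = 0.214). Of 6 genes from the study's own list, MX2, HERC6, DDX60 and XAF1 were called upwards and TNFSF10 and TLR3 were not. These 6 were listed for a change in these biopsies, so that count is no result about interferon-stimulated genes. MX2 (ENSECAG00000017220), an antiviral GTPase, rose from 6.19 ± 2.79 (SD, n = 4) to 28.9 ± 11.4 CPM (SD, n = 5), and kept its call without any single mare, as did HERC6. DDX60 lost its call without mare 3 (adjusted p = 0.0626) and XAF1 without mare 2, 3 or 4 (highest 0.363).

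Of 14 genes of antigen presentation, TAP1, also in the interferon list, was the 1 called (7.14%, against 3.41% of the 1641 genes). The 14 genes were higher in 4, 13, 14 and 12 of 14 in mares 1 to 4, with medians of -0.18, 0.70, 0.50 and 0.42. CD74, the invariant chain of MHC class II, was at 1392 ± 540 and 1939 ± 408 CPM (adjusted p = 0.413). Leukocyte markers gave no call: 0 of 20 by edgeR or DESeq2, and 1 with an unadjusted likelihood ratio p under 0.05, with medians of -0.11, -0.18, 0.25 and -0.27 in mares 1 to 4. Their summed level was 847 to 1870 CPM in cyclic and 1150 to 1790 CPM in pregnant endometrium.

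Immediate-early genes, which cells transcribe within minutes of a stimulus, had opposite signs in different mares. The median of 22 such genes was 1.08, -1.48, 2.23 and 1.85 on the log2 scale in mares 1 to 4, and they were higher in 18, 2, 18 and 20 of 22. RGS2, a brake on G protein signalling, was the 1 called by edgeR (4.55% of the list, against 3.41% of the 1641 genes; log2 change 1.91 ± 0.38 SE, adjusted p = 0.000296, kept without any single mare). DESeq2 called 4 of the 22, RGS2, NR4A1, DUSP4 and ERRFI1, beside 237 of all 11892 genes. Of the 22, 9 had an unadjusted likelihood ratio p under 0.05, beside 1341 of all genes. NR4A1, a nuclear receptor of this class, stood at 93.3, 1770, 23.6 and 14.2 CPM in cyclic and 783, 552, 743, 533 and 307 CPM in pregnant endometrium. Cyclic 2 was thus above every pregnant biopsy and the other cyclic ones were below all of them, and the fitted change of 3.40 ± 0.89 (SE) did not pass (adjusted p = 0.136). NR4A3 and EGR3 were likewise lower in mare 2 alone, with differences of -3.13 and -4.27, and higher by 2.8 to 5.84 in the others (adjusted p = 0.282 and 0.448). Handling of the uterus and the time to freezing of each biopsy were not tested. The circadian repressor NFIL3, from the study's own list, rose by 0.73 to 1.27 in the 4 mares and came under the fold limit without mare 1 or 3, and of 7 clock genes named through the embryo comparison 0 were called by edgeR or DESeq2, with 1 at an unadjusted likelihood ratio p under 0.05.

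Markers of multiciliated epithelium also differed in sign between mares. All 48 were lower in pregnancy in mare 1 and all 48 were higher in mare 3, with medians of -0.58, -0.22, 1.21 and 0.43 in mares 1 to 4, and 0 of 48 passed with edgeR or DESeq2, nor did any have an unadjusted p under 0.05. The other epithelial markers had medians of -0.36, 0.07, 0.11 and 0.16, with 0 of 17 called by edgeR or DESeq2 and 3 at an unadjusted likelihood ratio p under 0.05. SOX17 (0.87) and PAX8 (-0.69) passed the adjusted p but not the fold limit. Endothelial markers had medians of 0.08, -0.50, -0.71 and -0.22 (0 of 7 called by either, 2 under 0.05), and the 4 smooth muscle markers 0.73, -1.17, -0.61 and -0.44 (0 called by either, 1 under 0.05).

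**Figure D2:**
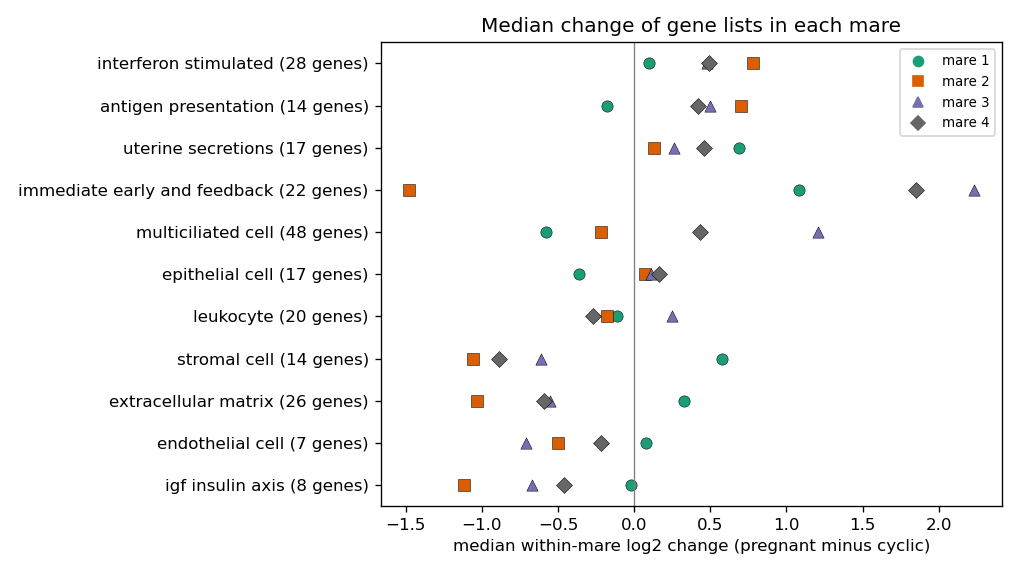
Median within-mare log2 change (horizontal axis, pregnant minus cyclic) of 11 gene lists named through the embryo comparison, with 1 marker per mare. Interferon-stimulated genes were above 0 in all 4 mares (0.10 to 0.78), immediate-early genes spanned -1.48 to 2.23, and stromal markers were above 0 in mare 1 alone.

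Changes were spread most widely among genes of low level. When genes were put into 6 equal bins of 1982 by their mean log2 CPM over all 9 biopsies, the SD of the mean within-mare log2 change was 0.626 in the lowest bin (1.08 to 10.4 CPM) and 0.360 to 0.411 in the others. The share of genes past 2-fold was 6.1% in the lowest bin and 1.87 to 2.83% in the others. The lowest bin held 35 rises and 30 falls among the called genes (3.28% called), and the highest bin, above 108 CPM, 26 rises and 9 falls (1.77%). The bin from 59.1 to 108 CPM held 27 rises and 3 falls, the most uneven split of the 6. The share of genes with the same direction in all 4 mares increased from 18.8% in the lowest bin to 24.3% in the highest, beside 22% of all genes, while the median SD of the change between mares was 0.522 in the lowest bin and 0.264 to 0.372 in the others.

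Ordered by the level in cyclic endometrium instead, the lowest bin held 60 rises and 14 falls and the highest 12 and 10. That view shares the cyclic values with the change itself. Of the 136 rises, 50 had fewer than 4 cyclic biopsies above 4 CPM and so needed pregnant ones to pass the filter. Among these, 15 had no cyclic biopsy above 4 CPM. A further 86 rises were above 4 CPM in all 9 biopsies. Of the 77 falls, 23 had fewer than 4 pregnant biopsies above 4 CPM and so needed cyclic ones, and 2 of these had none. In all 9 biopsies, 49 falls were above 4 CPM. The median rise went from 16.6 CPM in cyclic to 56.0 CPM in pregnant endometrium and the median fall from 34.6 to 12.8 CPM, and 16 genes of each direction were above 100 CPM in cyclic endometrium.

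**Figure D3:**
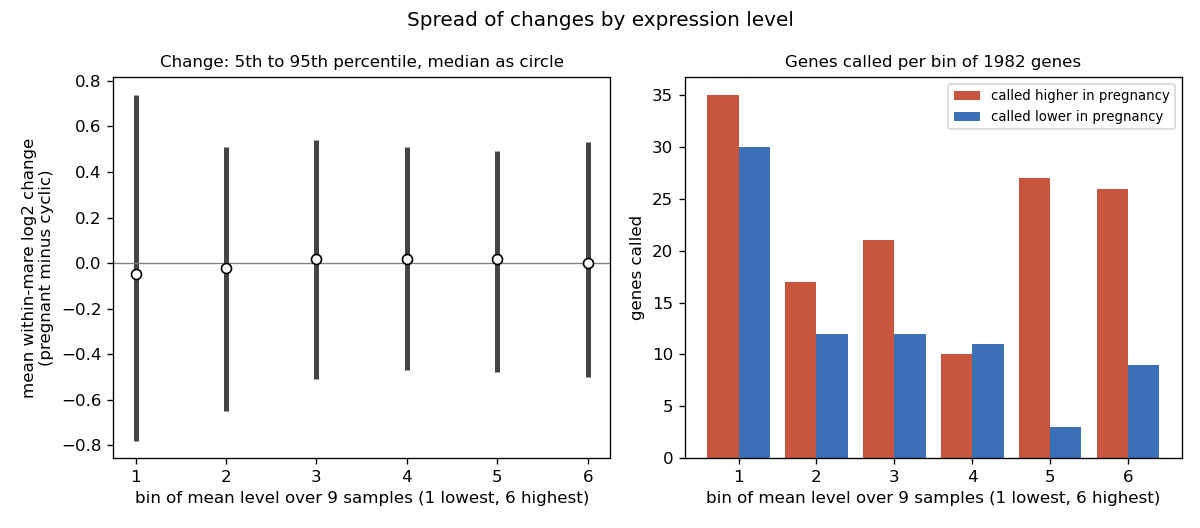
Left, 5th to 95th percentile (bars) and median (circles) of the mean within-mare log2 change in 6 bins of 1982 genes ordered by mean level over 9 biopsies. Right, number of called rises (red) and falls (blue) per bin, from 35 and 30 in the lowest bin to 26 and 9 in the highest.

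The called genes did not move equally in each mare. The median log2 change of the 136 rises was 1.16, 2.31, 1.95 and 1.30 in mares 1 to 4, and that of the 77 falls was -1.10, -1.75, -1.44 and -1.08. Over all genes the SD of the within-mare change was 0.609, 0.793, 0.700 and 0.488, and 7.85, 12.8, 11.1 and 4.14% of genes passed 2-fold, so mare 2 had the widest and mare 4 the narrowest changes. All 4 mares shared the direction in 132 of 136 rises and 74 of 77 falls, against 22% of all genes in either direction. The biopsies of both groups did not overlap for 86 rises (63.2%) and 27 falls (35.1%), against 4.02% of all genes, 2.41% with pregnancy higher and 1.61% with pregnancy lower. The test used these same values, so neither count is independent of the calls.

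The SD between mares had a median of 0.877 for rises, 0.615 for falls and 0.333 for all genes. Among the called named genes the SD was lowest for MET (0.258, with differences of 0.84 to 1.47), NFIL3 (0.27), TMPRSS4 (0.285) and SLC2A9 (0.312). It was 0.322 for NPAS1 (-1.55 to -2.28), 0.325 for GPR153, 0.341 for ADAMTS17 and 0.359 for LTBP1, whose changes were larger. The highest SDs were those of WNT7B (3.41, which depends on 0 counts in cyclic 2), CTSE (2.34) and IGFBP1 (2.14, with 0.98 in mare 1 and 5.62 in mare 3).

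**Figure D4:**
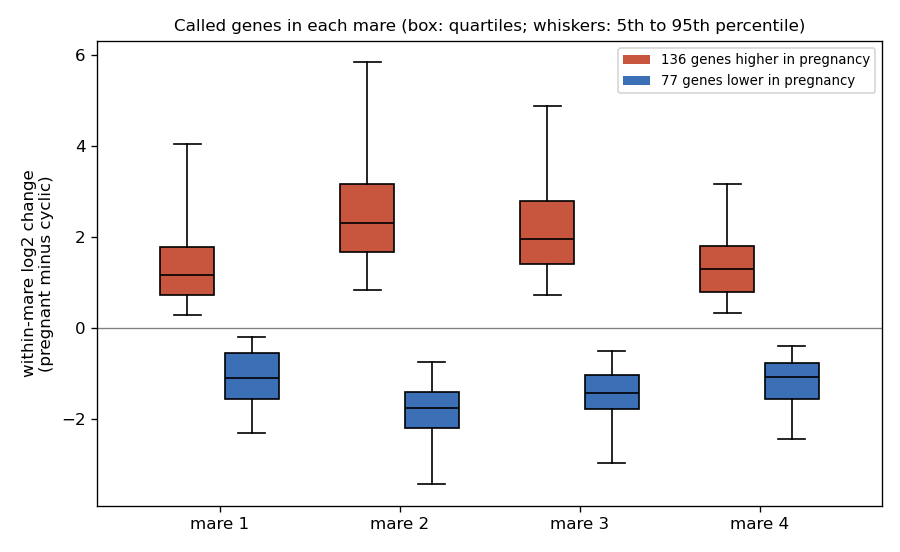
Within-mare log2 change (vertical axis, pregnant minus cyclic) of the 136 called rises (red) and 77 called falls (blue) in mares 1 to 4, as boxes of the quartiles with whiskers from the 5th to the 95th percentile. Medians of rises were 1.16, 2.31, 1.95 and 1.30, highest in mare 2.

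To see how calls carry over to an animal that was not used for them, each mare was left out in turn, genes were called on the remaining mares, and their change was read in the left-out mare. Without mare 3, 133 genes were called, of which 78 of 82 rises and 42 of 51 falls had the same direction in mare 3 (90.2%, against 63.4% of all genes). Without mare 4, 125 of 143 rises and 57 of 69 falls kept it (85.8% against 63%), and without mare 2, 82 of 121 rises and 34 of 36 falls (73.9% against 62.2%). Mare 1 differed. Without her, 455 genes were called, 219 higher and 236 lower, and in mare 1 151 of the 219 rises were higher but only 84 of the 236 falls were lower (51.6% the same, against 46.9% of all genes). The median change in mare 1 was 0.49 for those rises and 0.29, the opposite sign, for those falls.

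The correlation of changes over genes, which are not independent and give a description only, was 0.481 between mares 2 and 3, 0.334 between 2 and 4 and 0.515 between 3 and 4, but 0.0521, 0.0293 and 0.142 between mare 1 and mares 2, 3 and 4 (Pearson, 11892 genes). Cyclic 1 was also the cyclic biopsy with the lowest summed stromal markers (892 CPM) and the highest ciliated ones (6640 CPM). The part of tissue composition in this was not tested.

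**Figure D5:**
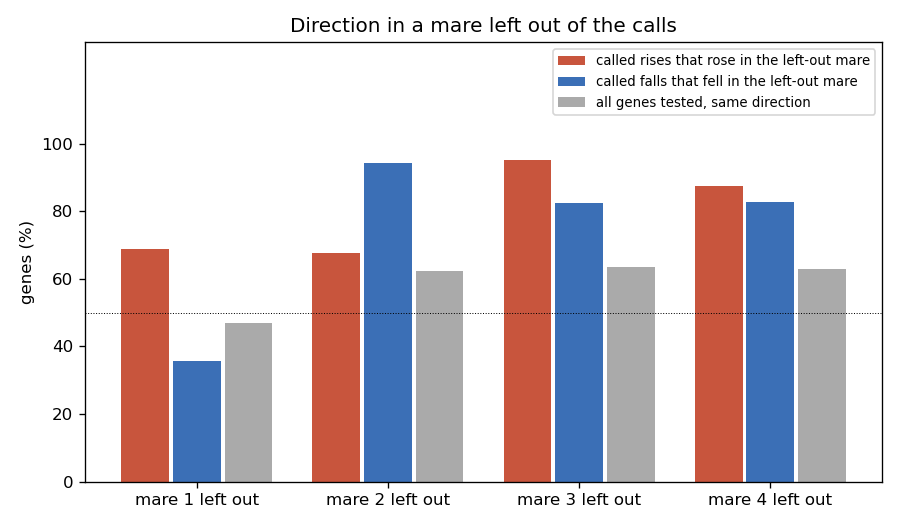
Share of genes (%) with the same direction in a left-out mare as in the fit of the remaining mares, for called rises (red), called falls (blue) and all genes tested (grey), with a dotted line at 50%. In mare 1, 84 of 236 falls were lower, whereas in mare 2, 34 of 36 were.

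Pregnant 5, which had no partner, gave a further reading because it did not set any fold change. It lay above the cyclic mean for 135 of the 136 rises and above all 4 cyclic biopsies for 120, against 18.1% of all genes. It lay below the cyclic mean for 76 of the 77 falls and below all 4 cyclic biopsies for 51, against 15.1% of all genes. Its median difference from the cyclic mean was 1.73 for rises and -1.29 for falls. The cyclic values that entered the calls are shared by this reading, and pregnant 5 was part of the filter and of the dispersion.

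Cyclic biopsies varied more among themselves than pregnant ones. In the same 4 mares the median SD of log2 CPM was 0.332 in cyclic and 0.235 in pregnant endometrium, the SD was larger in cyclic endometrium for 71% of genes, and the median ratio was 1.39. Without mare 1, 2, 3 or 4 the ratio was 1.5, 1.24, 1.25 and 1.57. The SD exceeded 1 for 803 genes in cyclic and 253 in pregnant endometrium. Cyclic 3 stood furthest from its group, with 1725 genes more than 2-fold from the mean of the others, and pregnant 5 had the fewest such genes, 307, although the median absolute deviation was smallest in pregnant 2 (0.178, against 0.207 in pregnant 5). The difference in spread was present in every level bin, where 69.1 to 73.2% of genes had the larger SD in cyclic endometrium. No test of it was made, because genes of a biopsy are not independent and each group held few biopsies.

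Genes without a symbol also moved widely. ENSECAG00000023463 rose from 0.123 ± 0.184 (SD, n = 4) to 18.8 ± 12.4 CPM (SD, n = 5), with a rise in each mare (adjusted p = 1.03e-30). It passed the level filter through the pregnant biopsies alone and was tested in only 1 fit that left out a mare, where its call remained. ENSECAG00000008347 fell from 93.9 ± 82.3 to 11.6 ± 9.03 CPM (adjusted p = 3.12e-06), with overlap between the groups, and ENSECAG00000020101 fell from 9.74 ± 6.62 to 2.61 ± 1.29 CPM.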

How the data were processed

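The authors trimmed adapters with cutadapt 1.11, mapped the reads to the EquCab reference in CLC Genomics Workbench, and deposited raw counts per Ensembl gene, with 1 file per biopsy. A directional kit was used, but neither use of strand in counting nor treatment of reads with several matches was given in the sources used here, so overlapping genes and near-identical copies are uncertain. Total counts were 21.8 to 46.9 M, and 3 counts, taken as the floor, were 0.0639 to 0.138 CPM. This floor covers counting error only, whereas the SDs and the standard errors of the model include variation between biopsies.

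Groups came from the labels, and the mare from the replicate number in them, since the study used each mare as her own control. Deviations from the group mean of the same mare correlated at 0.122, 0.0847, 0.569 and 0.573, against -0.205 to -0.019 with other mares. Biopsies were separate samples: the smallest chi-square per degree of freedom among 36 pairs of libraries was 100.

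In R 4.3.3 with edgeR 4.0.16, TMM factors (0.902 to 1.07) were computed, genes over 4 CPM in at least 4 of 9 samples were kept, and factors were computed again. A negative binomial model with the mare as block was tested by likelihood ratio, as the study states, with Benjamini-Hochberg adjustment over all 11892 genes. Calls needed an adjusted p under 0.05 and a change over 2-fold. Standard errors came from the model. Single-gene CPM were TMM-scaled, and log2 CPM and within-mare differences used a prior count of 2. Summed marker and embryo levels were on the same scale. The exact two-sided sign test over 4 pairs cannot go below 0.125, so no per-gene permutation test was made. Tests were checked on simulated data.

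The members, gene lists and tests were chosen with earlier results of these data known. Symbols were attached from identifier and symbol pairs in the study's tables, of which no values were used. A RefSeq table matched 0 identifiers, so no sequence or position is given. Named genes were the 12 largest rises and falls with a symbol and the same direction in 4 mares, called members of the lists, genes of pregnancy recognition, up to 2 rises and 2 falls without a symbol, and the 3 uncalled genes most variable in cyclic endometrium. Alternatives were the quasi-likelihood test, no block, DESeq2 1.42.0, limma 3.58.1 with voom, other scalings, filters and thresholds, and leaving out each mare.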

Additional observations from a re-analysis of the deposited data

Results flagged for a closer look

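Of 52 groups of values checked, each of 4 or 5 biopsies, 6 had a single biopsy far from the rest by Dixon's criterion, and chance gives about 2.6. Cyclic 4 had 11855 genes over 4 CPM, against at most 11650 in the other cyclic biopsies. Cyclic 2 had 48 CPM of the 50 genes specific to embryos and 46.7 CPM of the 49 left without the called one, against at most 24.9 and 24.7 in the other cyclic biopsies. Cyclic 2 also had 0.717 CPM of DDC, against at most 0.0256, and was the shallowest library. Pregnant 2 had 18.3 CPM of DDC, against at most 6.2 in the other pregnant biopsies. Pregnant 3 had 17.6 CPM of ADAMTS17, against at least 21.7 in the others.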

How the results depend on the processing

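The 213 calls became 1 (1 higher, 0 lower) under quasi-likelihood with the replicate block kept, or under limma with voom, 19 (14 and 5) under the quasi-likelihood test without the block, and 338 (138 lower) without the fold threshold. Without the replicate block the likelihood ratio test gave 179 calls (117 higher, 62 lower), of which 138 were among the 213. With any gene of at least 1 count tested, 125 were lower. Leaving out each mare gave 133 to 455 calls, 82 to 219 higher and 36 to 236 lower, the highest without mare 1 and the lowest total without mare 3. The share of rises among calls was 63.8% as reported, 48.1% without mare 1 and 77.1% without mare 2. The cause was not tested. The 62 calls in gene lists became 0 under quasi-likelihood and 36 to 82 without a mare. The share of genes moving alike in 4 mares was 19.7% with library size alone, and the ratio of spreads was 1.24 to 1.57 without a mare. The other alternatives (DESeq2, other scalings and filters) gave 161 to 299 calls. Genes shared with the 213 had the same direction in each. Of 78 named called genes, 39 remained called in every fit without a mare that tested them. Pairs of 4 mares and a shallow cyclic 2 limit what can be seen at low levels.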
